A study of Mus musculus with 6 samples.

Results

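The genes described are 10 genes of the cytotoxic programme, measured in naive CD4 T cells of the mouse that were sorted by the surface protein Ly-6C. They are the lectin-like receptor genes Klrd1, which encodes CD94, Klrk1, which encodes NKG2D, and Klrg1; the granzyme genes Gzma, Gzmb, Gzmk and Gzmm; the perforin gene Prf1; and Nkg7 and Ctsw, which encode proteins of cytotoxic granules. Probe sets were chosen by their mean level, the brightest per gene being kept, and since each of the 10 had a single probe set that carried its symbol alone, this left 10 genes of 19938 in all. The names were chosen with earlier group differences on the same arrays known, those of Klrd1 and Gzma among them, so counts over the 10 are a description and support nothing by themselves.

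The source was the peripheral lymph nodes of 6-week-old C57BL/6 Foxp3-GFP mice, in which a green fluorescent protein reports the regulatory T cell factor Foxp3. Both groups were magnetically enriched and then sorted as CD4+, CD8-, TCRβ+, CD44lo, CD25- and Foxp3-, one as Ly-6C+ and the other as Ly-6C-. Each group has 3 Affymetrix arrays, labelled as biological replicates, and the labels do not say whether an array holds 1 mouse or a pool. The p-values therefore measure the spread between these arrays, whose number limits the precision. Values are log2 expression, on which a difference of 1 is a doubling, and a negative difference means less transcript in the Ly-6C-negative group.

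Cytotoxic lymphocytes kill by releasing granules in which perforin opens the target's membrane and granzymes, a family of serine proteases, enter and cleave proteins that lead to cell death. CD94 has no signalling part of its own and works as a pair with an NKG2 chain, recognising the non-classical class I molecule Qa-1, whereas NKG2D binds stress-induced ligands and signals through the adaptor DAP10 and, in the mouse, DAP12. These genes are best known from NK cells and effector CD8 T cells, and naive CD4 T cells are not known as killers.

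The labels were first set against the sort. The probe sets 10429568 and 10429573, both listed under Ly6c1 and Ly6c2, were 9.03-fold and 6.03-fold lower in the Ly-6C-negative group. The T cell genes Cd3e and Cd4 measured 11.78 and 10.59 in the Ly-6C-positive group and 11.76 and 10.50 in the Ly-6C-negative group. Of the 5 measured CD4 T cell markers, of 6 listed, 0 passed limma over all genes, with 1 above 0 and 4 below. The 1 above was Cd5, at 0.41 and without overlap between the groups (limma adjusted p = 0.139). Array medians lay between 6.25 and 6.29. At an adjusted p of 0.05, limma called 29 of the 19938 genes, which is 0.145%, and 9 of them (0.0451%) were lower in the Ly-6C-negative group.

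Transcripts of Klrd1, Gzma and Prf1 were lower in all 3 Ly-6C-negative arrays than in any Ly-6C-positive array, and the other 7 genes overlapped between the groups. Over all genes, 6.50% did not overlap with the Ly-6C-negative arrays below and 6.12% with them above. Klrd1 and Gzma passed the limma threshold over all genes and Prf1 did not (limma adjusted p = 0.145). Prf1 passed it with the replicate number as a block, a pairing that the labels do not state. None of the 10 was higher past the threshold. The difference was 2.83-fold for Klrd1, 1.61-fold for Gzma and 1.62-fold for Prf1.

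The sequences just before the start sites of Gzma, Prf1 and Gzmk are shown because Gzma and Prf1 differed in the same direction, and because Gzmk, the direct neighbour of Gzma on the chromosome, is the gene to set beside it. Each is the 250 bases before the gene's start in the RefSeq table of build GRCm38.p6, read 5′ to 3′ on the strand of the gene, and 7 of the 10 genes matched an entry there. Klrd1, Klrg1 and Ctsw did not, so the counts below leave them out. Capitals mark the letters TGTGGT, the core bound by RUNX factors, and GGTGTGA, a core bound by T-box factors such as T-bet and Eomes, on either strand.
Gzma (chr13:113100982-113101231, minus strand): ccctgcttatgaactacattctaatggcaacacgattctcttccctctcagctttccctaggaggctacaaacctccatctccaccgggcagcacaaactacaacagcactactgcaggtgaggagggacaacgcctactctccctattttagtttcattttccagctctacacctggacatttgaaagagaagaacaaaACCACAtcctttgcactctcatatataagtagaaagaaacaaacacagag
Prf1 (chr10:61297586-61297835, plus strand): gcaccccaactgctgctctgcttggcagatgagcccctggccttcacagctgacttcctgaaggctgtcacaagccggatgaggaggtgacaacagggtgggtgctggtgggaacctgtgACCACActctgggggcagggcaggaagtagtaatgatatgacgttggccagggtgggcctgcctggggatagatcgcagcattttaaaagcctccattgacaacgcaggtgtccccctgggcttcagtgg
Gzmk (chr13:113180966-113181215, minus strand): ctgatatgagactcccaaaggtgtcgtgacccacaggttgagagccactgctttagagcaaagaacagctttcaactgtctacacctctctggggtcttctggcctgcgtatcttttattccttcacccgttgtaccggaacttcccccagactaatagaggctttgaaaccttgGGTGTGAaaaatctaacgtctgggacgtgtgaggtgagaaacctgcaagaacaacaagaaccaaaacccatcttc
The RUNX letters stood on the other strand (ACCACA), starting at position -50 from the start of Gzma and -130 from that of Prf1. In Gzmk the T-box letters started at -75 and the RUNX letters were not in this window. Over the 8 windows of the 7 genes, since Gzmm has 2, the RUNX letters were found in 6, in Klrk1, Nkg7, Prf1, Gzmm, Gzma and Gzmb, against 14.0% of all 32851 windows of that length. The T-box letters were found in 3, in Nkg7, Gzmm and Gzmk, against 3.33% of all windows. CAGGTG, a core bound by ZEB factors, was found in Gzma and Prf1 (17.2% of all windows), TTCNNNGAA, a core bound by STAT factors, in Nkg7 and Gzmm (7.02%), and GGAAGT, an ETS core, in Prf1 and Gzmk (19.7%). The T-box letters share stretches with the RUNX and ZEB letters, so 1 stretch could match both, but 0 matches overlapped in these 8 windows. A match describes the sequence only.

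Klrd1 (probe set 10542214) measured 8.24, 8.75 and 8.60 in Ly-6C-positive replicates 1, 2 and 3 and 6.74, 7.49 and 6.86 in Ly-6C-negative replicates 1, 2 and 3. The lowest Ly-6C-positive array stood above the highest Ly-6C-negative array, which was replicate 2, and replicate 2 was the highest of its group on both sides. The means were 8.53 ± 0.26 (SD, n = 3) and 7.03 ± 0.41 (SD, n = 3), a difference of -1.50 with a standard error of 0.19 and a 95% confidence interval from -1.93 to -1.08 (limma adjusted p = 0.0263 over all genes). This was the lowest difference of all 19938 genes, rank 1, a ranking over genes with a probe set that carries their symbol alone. The probe sets 10429568 and 10429573, both listed under Ly6c1 and Ly6c2, stood outside this ranking and differed by -3.18 and -2.59. Between arrays of the same replicate number the Klrd1 difference was -1.50, -1.26 and -1.75. The adjusted p lay above the threshold without Ly-6C-positive replicate 1, 2 or 3 (limma adjusted p = 0.0683, 0.174 and 0.199) or without Ly-6C-negative replicate 1 or 3 (limma adjusted p = 0.133 and 0.0607), and was 0.00100 without Ly-6C-negative replicate 2.

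**Figure D1:**
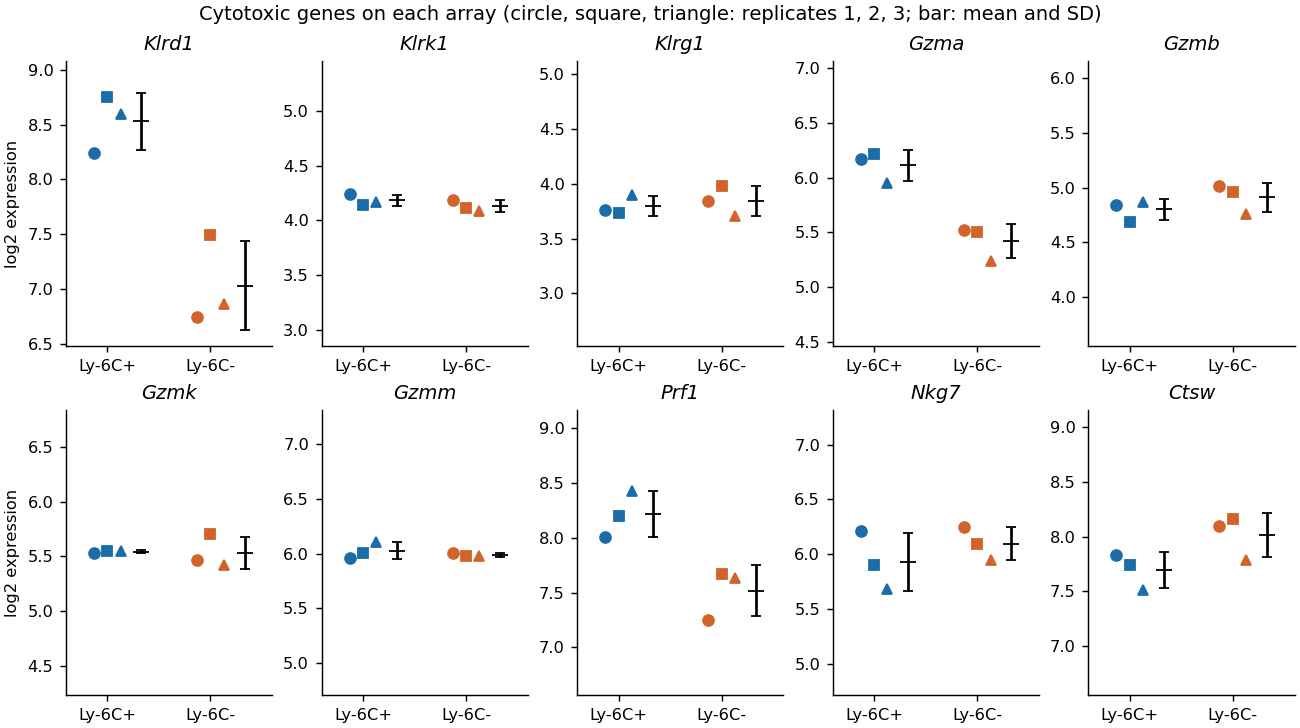
Log2 expression of the 10 genes on each of the 6 arrays, by group (horizontal axis), with replicate numbers as symbols and the mean ± SD of 3 arrays as a bar; every panel spans the same range of log2 units. Klrd1, Gzma and Prf1 separate the groups, with Klrd1 between 8.24 and 8.75 in the Ly-6C-positive group and between 6.74 and 7.49 in the Ly-6C-negative group, and the other 7 genes overlap.

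The NKG2 partners of CD94 did not pass the test. Klrc1, which encodes the inhibitory chain NKG2A, measured 4.09, 4.04 and 3.98 in the Ly-6C-positive arrays and 4.20, 4.07 and 4.14 in the Ly-6C-negative arrays, a difference of 0.096 with a 95% confidence interval from -0.06 to 0.25. Klrc2, which encodes NKG2C, differed by -0.044 and Klrc3, which encodes NKG2E, by 0.013 (limma adjusted p of 0.966 and 0.994). The intervals were -0.25 to 0.17 for Klrc2 and -0.16 to 0.19 for Klrc3. All 3 were among the genes dimmer than the median gene, and RMA compresses differences near background. Their Ly-6C-positive means were 4.04 for Klrc1, 4.32 for Klrc2 and 3.35 for Klrc3, and the lowest value on any array was 2.47. A fall at such levels could be compressed, so whether they follow Klrd1 cannot be read from these values. A probe set shared by H2-T23, which encodes Qa-1, and H2-T-ps differed by -0.12 (limma adjusted p = 0.855 over all probe sets).

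Klrk1 (probe set 10548345), next to Klrd1 in the NK gene complex, measured 4.24, 4.14 and 4.17 in the Ly-6C-positive arrays and 4.19, 4.11 and 4.09 in the Ly-6C-negative arrays. The groups overlapped, and the difference of -0.053 had a 95% confidence interval from -0.20 to 0.10 (limma adjusted p = 0.932). Its adaptor genes Hcst, which encodes DAP10, and Tyrobp, which encodes DAP12, stood at -0.14 and -0.16 (0.886 and 0.853 as limma adjusted p); both are named for their role. Klrg1 (probe set 10547590), an inhibitory receptor that binds cadherins and is raised on terminally differentiated effector cells, measured 3.76, 3.73 and 3.90 against 3.84, 3.98 and 3.71. Its difference of 0.044 had an interval from -0.15 to 0.23 (limma adjusted p = 0.962), and its sign turned without Ly-6C-negative replicate 2.

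Of 27 measured genes of other NK lectin-like and cytotoxic-cell receptors, of 33 listed, 0 passed the limma test over all genes and 1 had an unadjusted p under 0.05, as 6.71% of all genes had (1337 of 19938), the share against which all such counts stand. That 1 was Crtam, a receptor of cytotoxic T cells, at -0.29 with an interval from -0.52 to -0.06 (limma adjusted p = 0.617). The differences of the 27 ran from -0.29 to 0.18 with a median of 0.0056, beside a median of -0.0048 over all genes. Of the 27, 22 were dimmer than the median gene, and RMA compresses differences near background. Gzma, which passed, was dimmer than the median gene too. Of 16 receptor adaptor and signalling genes 0 passed and 3 had an unadjusted p under 0.05 (6.71% of all genes); Pik3cd, a catalytic subunit of phosphoinositide 3-kinase, differed by 0.22 without overlap between the groups (limma adjusted p = 0.473). Of 5 measured ligand genes, of 13 listed, 0 passed either way, with H60b, an NKG2D ligand, at -0.11.

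Gzma (probe set 10412211), the gene of a granzyme with trypsin-like specificity, measured 6.17, 6.22 and 5.95 in the Ly-6C-positive arrays and 5.52, 5.50 and 5.24 in the Ly-6C-negative arrays. Replicate 3 was the lowest of both groups, and the groups did not overlap. The means were 6.11 ± 0.14 (SD, n = 3) and 5.42 ± 0.16 (SD, n = 3), a difference of -0.69 with a standard error of 0.099 and a 95% confidence interval from -0.91 to -0.47 (limma adjusted p = 0.0392). Between arrays of the same replicate number the difference was -0.64, -0.71 and -0.71. Gzma was no longer past the threshold without Ly-6C-positive replicate 1, 2 or 3 (limma adjusted p = 0.270, 0.290 and 0.122), without Ly-6C-negative replicate 1 or 3 (limma adjusted p = 0.143 and 0.0657), or with every probe set as its own feature (limma adjusted p = 0.0622). It is among the genes dimmer than the median gene and so was not tested where these were left out.

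Gzmk (probe set 10412218), a second trypsin-like granzyme, measured 5.53, 5.55 and 5.55 in the Ly-6C-positive arrays and 5.47, 5.70 and 5.42 in the Ly-6C-negative arrays. The Ly-6C-negative arrays lay on both sides of the Ly-6C-positive ones. The difference was -0.014 with a 95% confidence interval from -0.20 to 0.17 (limma adjusted p = 0.993), an interval that lies wholly above that of Gzma, and its sign turned under both other scalings. The difference between the 2 genes was not tested.

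Gzmb (probe set 10420308), the granzyme that cleaves after aspartate and activates caspases, measured 4.84, 4.69 and 4.87 against 5.01, 4.96 and 4.76. Its difference of 0.11 had an interval from -0.08 to 0.30 (limma adjusted p = 0.886), and the groups overlapped. Gzmm (probe set 10364460), a granzyme that cleaves after methionine or leucine, measured 5.96, 6.01 and 6.11 against 6.01, 5.98 and 5.98. Its difference of -0.036 had an interval from -0.19 to 0.11 (limma adjusted p = 0.959), and its sign turned without Ly-6C-positive replicate 3. Of the 6 other granzyme genes, which lie beside Gzmb, 0 passed with limma, adjusted or not, with differences from -0.10 to 0.45. All 6 were dimmer than the median gene, and RMA compresses differences near background. Gzmc was the highest at 0.45, with Ly-6C-negative replicate 2 at 5.74 and the other two arrays of that group at 4.63 and 5.10 (limma adjusted p = 0.801).

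Prf1 (probe set 10363475) measured 8.01, 8.20 and 8.43 in the Ly-6C-positive arrays and 7.25, 7.67 and 7.63 in the Ly-6C-negative arrays. The groups did not overlap, and replicate 1 was the lowest of both. The means were 8.21 ± 0.21 (SD, n = 3) and 7.52 ± 0.23 (SD, n = 3), a difference of -0.70 with a standard error of 0.13 and a 95% confidence interval from -0.99 to -0.40. It did not pass the test over all genes (limma adjusted p = 0.145) but did so in the fit that holds the replicate number as a block, at a limma adjusted p of 0.00848, and with array weights, at a limma adjusted p of 0.0370. With 1 array left out it did not pass, at limma adjusted p from 0.0742 to 0.619. Between arrays of the same replicate number the difference was -0.76, -0.53 and -0.80.

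When replicate numbers entered the fit as blocks, 3 of the 10 genes passed, Klrd1 (limma adjusted p = 0.000202), Gzma (limma adjusted p = 0.00489) and Prf1, where 0.206% of all genes did in either direction and 0.0652% in the lower one. The same 3 passed with array weights, where 0.0853% of all genes were lower. The groups did not overlap for these 3 genes, and 0 of the 10 were without overlap in the other direction. In 4 of the 10 the Ly-6C-negative array was below the Ly-6C-positive array at every replicate number, beside 14.8% of all genes. In 2, Nkg7 and Ctsw, it was above at every replicate number, beside 13.3%. The median difference of the 10 genes was -0.025, beside -0.0048 over all genes, with 6 below 0 and 4 above.

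**Figure D2:**
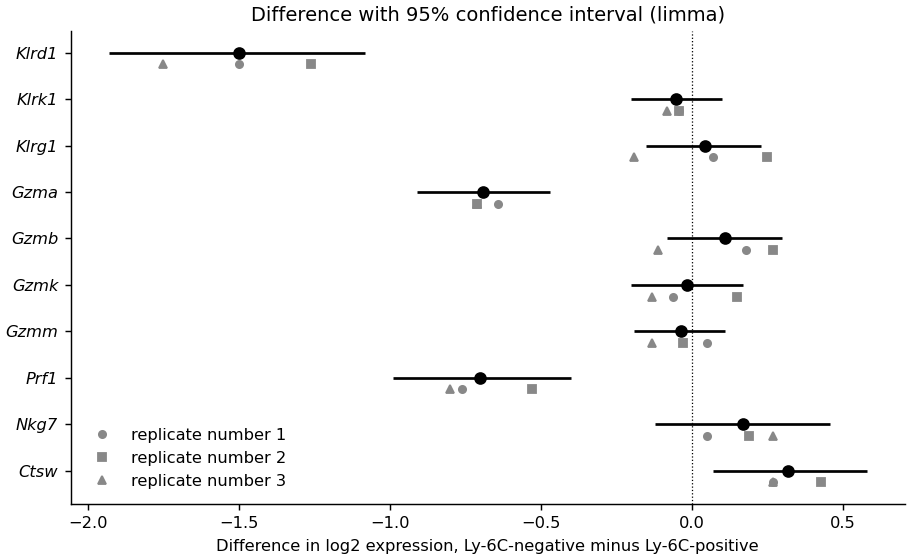
Difference in log2 expression (Ly-6C-negative minus Ly-6C-positive, horizontal axis) of each gene, as the limma estimate with its 95% confidence interval (black) and as the differences between arrays of the same replicate number (grey symbols). The intervals of Klrd1, Gzma and Prf1 lie below 0 and that of Ctsw lies above 0 at 0.07 to 0.58. The other 6 include 0. The intervals are not adjusted for the number of genes. Prf1 and Ctsw did not pass over all genes (limma adjusted p = 0.145 and 0.622).

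Nkg7 and Ctsw lay on the other side of 0. Nkg7 (probe set 10552406), a granule membrane protein of NK and cytotoxic T cells that is needed for full degranulation, measured 6.21, 5.90 and 5.68 in the Ly-6C-positive arrays and 6.25, 6.09 and 5.95 in the Ly-6C-negative arrays. Its difference of 0.17 had an interval from -0.12 to 0.46 (limma adjusted p = 0.886), and the groups overlapped. It was 0.31 without Ly-6C-positive replicate 1, 0.045 without Ly-6C-positive replicate 3 and 0.092 without Ly-6C-negative replicate 1. Ctsw (probe set 10465059), which encodes the cysteine protease cathepsin W, measured 7.83, 7.74 and 7.51 against 8.10, 8.16 and 7.79. Of the Ly-6C-negative arrays, replicate 3 fell within the range of the Ly-6C-positive arrays, and replicate 3 was the lowest of both groups. The difference was 0.32 with an interval from 0.07 to 0.58 (limma adjusted p = 0.622, and 0.246 with the block).

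Genes of granule content, transport and inhibition did not pass. Of 10 measured genes of granule matrix and protease processing 0 passed limma over all genes and 1 had an unadjusted p under 0.05 (6.71% of all genes); Lamp2, a lysosomal membrane protein, differed by 0.22 without overlap between the groups and Ctsc, the cathepsin that activates granzymes by trimming them, by 0.18. Of 14 measured genes of granule transport and release 0 passed and 2 had an unadjusted p under 0.05 (6.71% of all genes). Lyst, a regulator of lysosome size, measured 8.81, 8.70 and 8.80 against 8.43, 8.29 and 8.63, a difference of -0.32 without overlap (limma adjusted p = 0.475), and Sytl2, a Rab27 effector, differed by 0.23, also without overlap (limma adjusted p = 0.724). Of 5 measured granzyme inhibitor genes 0 passed, adjusted or not, with Serpinb9, the inhibitor of granzyme B, at -0.084. The medians of the 3 lists were 0.037, 0.0084 and 0.010.

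Of 12 genes of death ligands, cytokines and chemokines 0 passed limma over all genes and 4 had an unadjusted p under 0.05 (6.71% of all genes). Fasl, the ligand of the other main killing pathway, measured 7.60, 7.55 and 7.54 against 7.45, 7.40 and 7.25, a difference of -0.20 without overlap (limma adjusted p = 0.644). Ccl5, a chemokine of effector and memory T cells, differed by 0.59 (limma adjusted p = 0.617), with Ly-6C-negative replicate 2 at 8.25 and the other two at 7.53 and 7.33. Il2 was at 0.21 and Xcl1 at 0.17, both without overlap (limma adjusted p = 0.586 and 0.660).

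Transcription factors that drive or restrain the cytotoxic programme did not pass without the block. Of 16 measured, 0 passed limma over all genes and 5 had an unadjusted p under 0.05 (6.71% of all genes), 9 lay above 0 and 7 below, and the median was 0.087. Eomes, a T-box factor of cytotoxic and memory cells, measured 6.35, 6.29 and 6.20 against 6.52, 6.66 and 6.47, a difference of 0.27 opposite in sign to Klrd1, Gzma and Prf1 (limma adjusted p = 0.473). Id2, an inhibitor of E proteins, differed by 0.58 (limma adjusted p = 0.144, and 0.0158 with the block), Ikzf3 by 0.36 and Bcl6 by 0.30 (limma adjusted p of 0.491 and 0.336). In 6 of the 16, Eomes, Id2, Ikzf3 and Bcl6 among them, all Ly-6C-negative arrays lay above all Ly-6C-positive arrays, beside 6.12% of all genes. In 2 of the 16 they lay below, beside 6.50%. Tbx21, which encodes T-bet, and Runx3, both named for their role, differed by -0.0013 with an interval from -0.21 to 0.21 and by -0.061 with an interval from -0.25 to 0.13.

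The IL-15, IL-12 and IL-18 receptor axis raises cytotoxic genes in NK and memory T cells. Of its 12 measured genes, 1 was higher and 1 lower past the limma threshold, beside 0.1% and 0.0451% of all genes. In 4 the unadjusted p was under 0.05 (6.71% of all genes). Il2rb, the chain shared by the IL-2 and IL-15 receptors, measured 6.39, 6.54 and 6.38 against 7.54, 7.64 and 7.50, a difference of 1.12 (limma adjusted p = 0.000860). Il18r1 measured 9.35, 9.54 and 9.53 against 8.74, 8.69 and 8.98, a difference of -0.67 (limma adjusted p = 0.0325), the direction of Klrd1. It was no longer past the threshold without Ly-6C-positive replicate 1, 2 or 3 (limma adjusted p = 0.116, 0.267 and 0.275), at a limma adjusted p of 0.236 without Ly-6C-negative replicate 1, or with every probe set as its own feature (limma adjusted p = 0.0522). Il15ra and Stat5b were at -0.24 and 0.21 and did not pass (limma adjusted p = 0.588 and 0.577). Neither overlapped between the groups. In 3 of the 12 all Ly-6C-negative arrays lay above all Ly-6C-positive arrays, beside 6.12% of all genes, and in 2 below, beside 6.50%.

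Since bulk RNA was measured, fewer cells of a type and less RNA per cell cannot be told apart. Markers of other cells that carry these genes stood as follows. Of 6 measured NK cell markers, of 7 listed, 0 passed limma, adjusted or not, 3 lay above 0 and 3 below, and the mean of the 6 ranged from 4.02 to 4.04 in the Ly-6C-positive arrays and from 4.01 to 4.04 in the Ly-6C-negative arrays. Ncr1, which encodes NKp46, measured 4.53, 4.41 and 4.27 against 4.43, 4.26 and 4.36, and Klrb1c, which encodes NK1.1, measured 3.85, 3.82 and 3.83 against 3.83, 3.83 and 3.86. All 6 were dimmer than the median gene, and the log2 scale of the arrays has no 0 at which a gene could be called absent.

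Cd8a and Cd8b1, the markers of CD8 T cells, were at -0.029 and -0.12 (limma adjusted p = 0.970 and 0.917). Their mean ranged from 7.06 to 7.20 in the Ly-6C-positive arrays and from 6.92 to 7.14 in the Ly-6C-negative arrays. The 4 measured markers of NKT and gamma-delta T cells, of 7 listed, had means from 6.51 to 6.56 and from 6.48 to 6.60, with Zbtb16, which encodes PLZF, at -0.074. The 5 measured markers of memory or activated CD4 T cells, of 6 listed, had means from 6.13 to 6.22 and from 6.16 to 6.33. Among them Cd44 measured 7.28, 7.20 and 7.22 against 6.99, 6.92 and 7.04 (limma adjusted p = 0.427). Its difference of -0.25 was without overlap and in the direction of Klrd1, Gzma and Prf1, while Ccl5 lay in the other. Itgae, at -0.088, also did not overlap (limma adjusted p = 0.886). Thus 2 of the 5 were without overlap with the Ly-6C-negative arrays below, beside 6.50% of all genes, and 0 with them above, beside 6.12%. In these 4 lists 0 markers passed limma over all genes, and 2, Cd44 and Ccl5, had an unadjusted p under 0.05 (6.71% of all genes). The part of the Cd44 difference in the others was not tested.

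The genes next to the 3 lower genes on the chromosome were read out too, by gene order in the RefSeq table and up to 6 protein-coding genes on each side, a choice made after the values were seen. Around Klrd1, the 11 measured neighbours other than Klrk1 differed by -0.17 to 0.29, and the smallest limma adjusted p was 0.675. Apart from Gabarapl1, their group means ran from 3.06 (Klri2) to 5.46 (Clec7a), below the array medians of 6.25 to 6.29. Differences near background are compressed, so small differences there do not show that the change is confined to Klrd1. Klre1, the next gene on one side, differed by 0.027 (limma adjusted p = 0.979). Around Gzma, the 11 measured neighbours other than Gzmk differed by -0.14 to 0.15 (smallest limma adjusted p = 0.706), and around Prf1 the 12 measured neighbours differed by -0.11 to 0.11 (smallest limma adjusted p = 0.842).

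**Figure D3:**
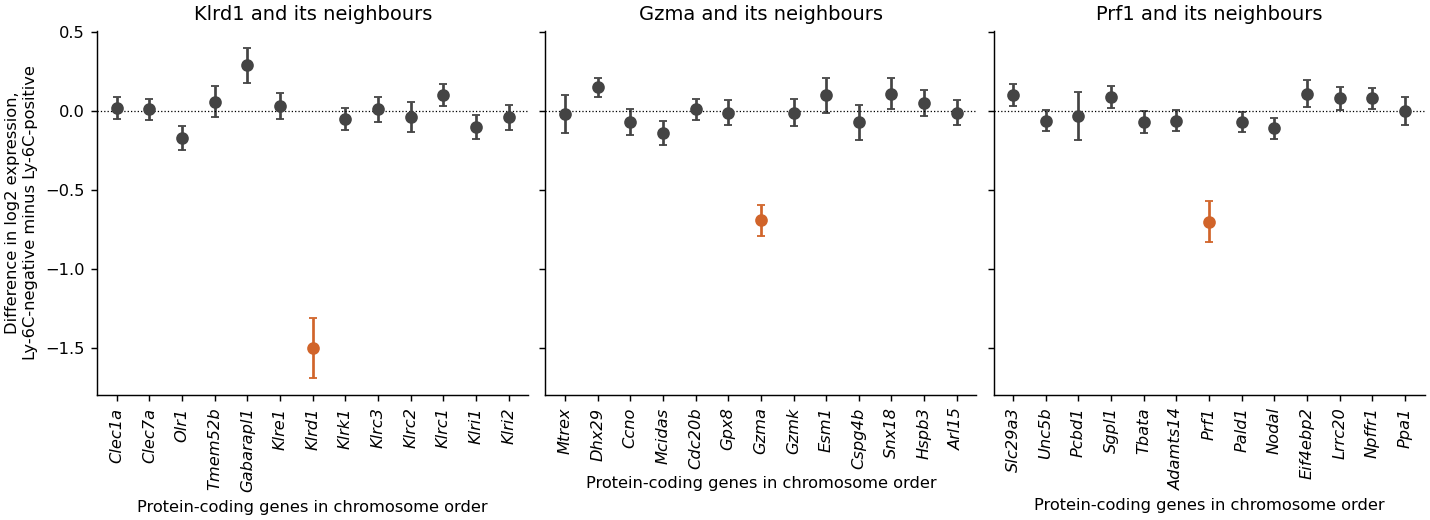
Difference in log2 expression (Ly-6C-negative minus Ly-6C-positive, with its standard error) of Klrd1, Gzma and Prf1 (orange) and of the measured protein-coding genes next to each (grey), in chromosome order. The neighbours lie between -0.17 and 0.29 and the 3 genes at -1.50, -0.69 and -0.70. The neighbours of Klrd1 other than Gabarapl1 have group means of 5.46 or below, and differences near background are compressed.

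The genes most like Klrd1 over the 6 arrays were found by the root mean square distance between values centred on each gene's own mean, leaving out predicted models. The nearest was Pdlim4, an actin-linked LIM protein, at a distance of 0.336 on the log2 scale; its own difference was -0.86 (limma adjusted p = 0.121, and 0.00602 with the block). It measured 8.33, 8.59 and 8.49 against 7.33, 8.0 and 7.51, so that its highest Ly-6C-negative array was replicate 2, as for Klrd1. Slc28a2b, a nucleoside transporter gene, followed at 0.380 and Dntt, the gene of terminal deoxynucleotidyl transferase, at 0.397. Prf1 was the fourth at 0.453 and Usp17ld the fifth at 0.480. Gzma was at rank 7 with 0.498, and the remaining genes of the 10 lay between 0.774, for Gzmk, and 0.960, for Ctsw. Nearness here follows from the group difference that Klrd1 was known for and is given as a description.

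**Figure D4:**
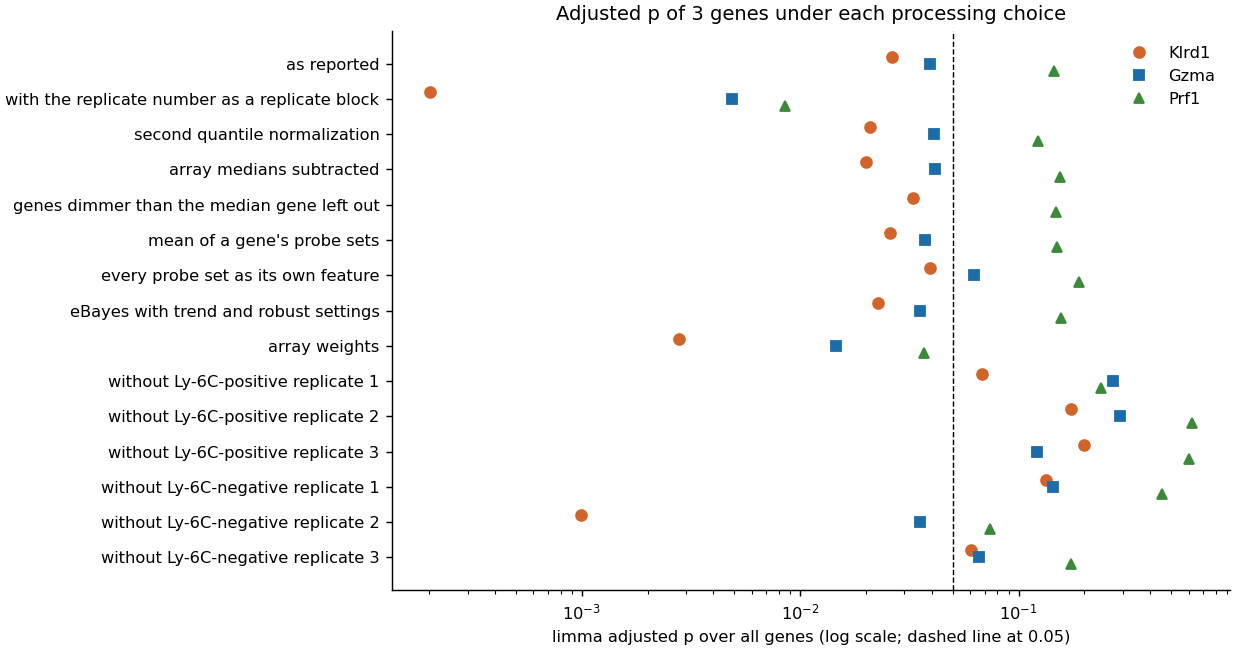
Adjusted p over all genes (horizontal axis, log scale) of Klrd1, Gzma and Prf1 under the fit as reported and under 14 other processing choices, or 13 for Gzma, which was not tested where dim genes were left out, with a dashed line at 0.05. Klrd1 and Gzma lie left of the line in most fits with all 6 arrays, with Gzma at 0.0622 when every probe set is its own feature. They lie right of it when any array other than Ly-6C-negative replicate 2 is left out. Prf1 lies left of it only with the replicate block and with array weights, and right of it whichever array is left out.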

How the data were processed

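The authors deposited log2 expression per probe set (28853 on each of 6 arrays), used here as given. The submitters' processing notes name RMA and Partek, with neither version nor role. RMA equalises the arrays' distributions and compresses differences near background, so a change shared by all genes cannot be seen. The chip description and genome build are not given. Symbols came from the platform annotation and were updated by Entrez ID (21698 of 21789 single-symbol probe sets matched), with the brightest probe set kept per gene.

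Groups were compared with limma 3.58.1 (R 4.3.3; lmFit, eBayes, 2-sided, no covariate or filter), with Benjamini-Hochberg adjustment over 19938 genes and a threshold of 0.05. Confidence intervals are per gene, not adjusted for the number of genes, and use 9.56 degrees of freedom, 5.56 of them prior. The steps were tested on simulated data, with planted differences larger than those of Gzma and Prf1. Python 3.11.15 with matplotlib 3.10.9 made the plots. Named are the 10 members, up to 4 genes per list with the smallest p and those past the threshold, markers, the 5 genes nearest to Klrd1, and genes said to be named for their role or place; not every gene the rule gives is printed. Members and lists were chosen with earlier results of these data known.

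Both groups carry replicate numbers 1 to 3. After subtracting group means, arrays with the same number correlated at r of 0.129, 0.128 and 0.107 across genes. Arrays with different numbers correlated at -0.107 to -0.0114. With 3 arrays per group these values are tied to each other and cannot establish a pairing, and the labels do not state one. The main fit uses no pairing. The block fit and the differences between arrays of the same number take the numbers as pairs. Listed genes without a single-symbol probe set were not analysed here.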

Additional observations from a re-analysis of the deposited data

How the results depend on the processing

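All 14 alternatives were planned. The count of genes past the threshold, 29 as reported, was 41 with the replicate block, 54 with array weights, 45 with every probe set as its own feature, and 5 to 47 with 1 array left out. Of the 10 genes, 2 passed as reported, 1 with every probe set as its own feature, 3 with the replicate block and 0 to 2 with 1 array left out. Klrd1 stayed between -1.74 and -1.36, with adjusted p from 0.00100 to 0.199 with 1 array left out, and Gzma between -0.77 and -0.60. Gzma did not pass with every probe set as its own feature, at -0.69 (adjusted p = 0.0622). Prf1 passed with the replicate block, at -0.70, and with array weights, at -0.77. Beside Prf1, the block added Id2 and Pdlim4 to the genes past the threshold and changed no other call among the genes named. 

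Signs turned where a difference was near 0. Gzmk became 0.0087 with a second quantile normalization and 0.0098 with array medians subtracted, and Tbx21 0.021 and 0.022 in turn. Cd3e became 0.0076 with medians subtracted. With array weights Klrc3 became -0.032, Tbx21 0.031 and Cd3e 0.012. With 1 array left out, the ranges that crossed 0 were -0.026 to 0.11 for Klrg1, -0.10 to 0.041 for Gzmk, -0.067 to 0.0051 for Gzmm, -0.13 to 0.042 for Klrc2, -0.037 to 0.063 for Klrc3, -0.026 to 0.095 for Klre1, -0.047 to 0.087 for Tbx21, -0.12 to 0.011 for Ncr1, -0.0023 to 0.018 for Klrb1c, -0.066 to 0.012 for Cd8a, -0.21 to 0.021 for Cd8b1, -0.20 to 0.0079 for Cd4 and -0.097 to 0.089 for Cd3e. The cause was not tested. Of the 10 genes, 7 are dimmer than the median gene, and could not be tested where such genes were left out.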
